A study of Homo sapiens with 6 samples.

Results

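The genes described here encode the enzymes and carriers of glycolysis, of lactate exchange and of pyruvate entry into mitochondria. They were chosen by symbol as a list of 36 genes, and all 36 were among the 35793 genes of the deposited table. A gene was tested when its normalized counts averaged 10 or more over the 6 libraries, which 15536 genes and all 36 members did. RNA was measured by sequencing in cardiomyocytes differentiated from WTC11, an established human induced pluripotent stem cell line, and harvested on day 15. The wild-type group was WTC11 without the edit, and the knockout group was a WTC11 derivative in which CRISPR/Cas9 had disrupted both copies of STK25, a serine/threonine kinase gene. Each genotype had 3 biological replicates, the labels name no treatment, and both were kept in RPMI medium with B27 supplement. Whether replicates were separate differentiations is not given in the sources used here, and if they were not, p-values measure only the spread between these samples. The labels name 1 knockout line, so the edit and any other difference between the lines cannot be told apart.

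Glycolysis splits glucose into pyruvate in the cytosol. Pyruvate is then either reduced to lactate by lactate dehydrogenase and exported with a proton, or carried into mitochondria and oxidised by the pyruvate dehydrogenase complex, which pyruvate dehydrogenase kinases switch off. The fetal heart relies strongly on glucose and lactate, and the heart turns to fatty acids after birth. Many steps are encoded by several paralogs, some widely expressed and some typical of muscle, so both the level of each gene and the balance within each family were compared between genotypes.

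Libraries held 22443904 to 53224112 reads assigned to genes. STK25, the targeted gene, was at 8874, 6774 and 8710 normalized counts in the wild type and at 3906, 3434 and 3820 in the knockout (log2 fold change -1.12, SE 0.19, limma adjusted p = 0.00903). Its adjusted p was 0.0611 without wild-type replicate 1. Cardiomyocyte markers were abundant in every library, with summed levels of 1424270 to 1806790 normalized counts in the wild type and 2010200 to 3706870 in the knockout over 12 genes. Of these 2 fell, NKX2-5 and PLN, and none was called higher. MYL7 alone, not called, held 441630 to 739950 in the wild type and 860614 to 2324410 in the knockout, a large part of these sums. Smooth muscle markers also moved with the genotype: 5 of 5 rose, and their sum was 79383 to 89832 in the wild-type libraries and 491950 to 539638 in the knockout libraries. Of the 8 fibroblast markers 3 rose and 1 fell, with sums of 12950 to 26529 and 8205 to 16655. Of 6 pluripotency markers 5 were tested and 2 rose (sums of 909 to 980 and 3264 to 4582), and of 5 epicardial markers 4 were tested and 1 rose (99.7 to 184 and 500 to 644). Of 7 endoderm and liver markers 5 were tested, 1 rose and 1 fell (1669 to 3040 and 1481 to 1670). Both neural markers that could be tested, of 6, rose (37.6 to 120 and 345 to 690), and none of the 3 tested of 6 endothelial markers passed (139 to 465 and 367 to 545). The endothelial genes CDH5, VWF and ERG, the epicardial gene MSLN, the endoderm gene FOXA2 and the neural gene SOX1 were at or near 0 in all libraries. The part of these other markers in the results below was not tested. In bulk RNA, fewer cells of a type and less RNA per cell cannot be told apart.

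Wild-type replicate 2 and knockout replicate 1 stood apart from the other libraries of their genotypes, and many members followed that pattern. In 33 of the 36 members both of these libraries departed from the other 2 libraries of their genotype in the same direction, 23 times downward and 10 times upward. That is 91.7% of the members, beside 75.2% of all genes tested. HK1, the main hexokinase here, had 6846 normalized counts in wild-type replicate 2 against 17252 and 19608 in replicates 1 and 3. In the knockout it had 11650 in replicate 1 against 28076 and 25054 in replicates 2 and 3. PGAM2, the muscle phosphoglycerate mutase, went the other way, with 10862 in wild-type replicate 2 against 6397 and 6056, and 15964 in knockout replicate 1 against 7178 and 9055. Across the 36 members the departures of both libraries correlated at a Spearman rho of 0.89, against 0.58 over all 15536 genes tested. Members with longer transcripts sat lower in both: rho with the median coding-transcript length was -0.66 for wild-type replicate 2 and -0.69 for knockout replicate 1, against -0.42 and -0.27 over the 14239 genes with a length. These are descriptions across genes that share the same libraries. The part of transcript length in the genotype differences was not tested. Members that did not pass with limma on all libraries but passed with it without both are given with that value below.

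**Figure D1:**
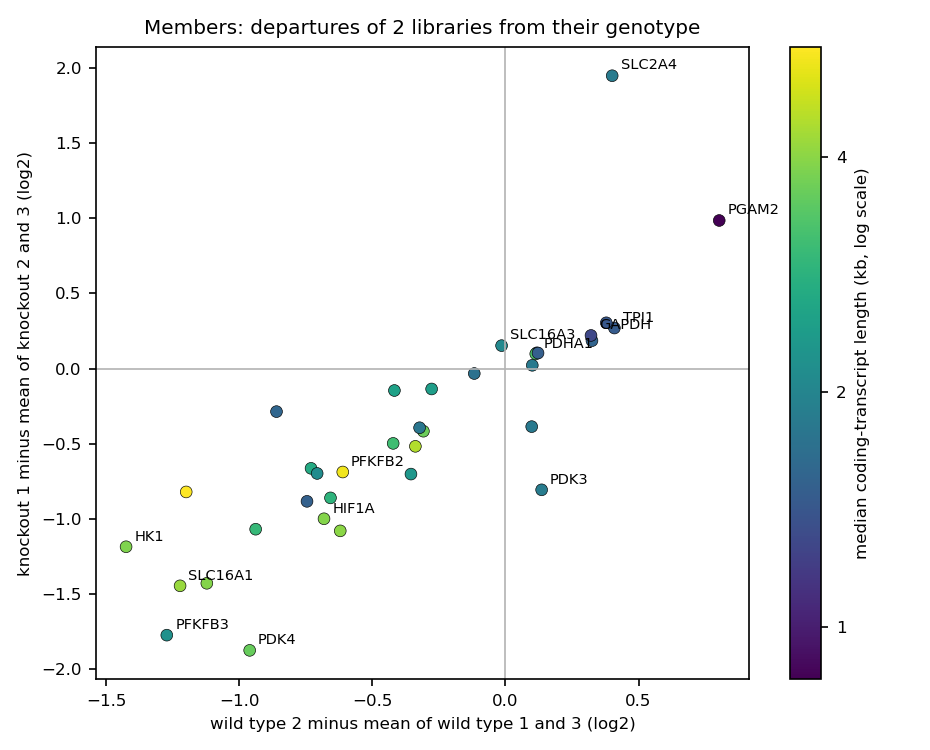
Departure of wild-type replicate 2 from the mean of wild-type replicates 1 and 3 (x axis, log2) and of knockout replicate 1 from the mean of knockout replicates 2 and 3 (y axis, log2), 1 point per member, coloured by median coding-transcript length. In 33 of 36 members both departures have the same sign, and the shortest member, PGAM2, is high in both libraries while HK1 and SLC16A1 are low in both.

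Between genotypes, 4 of the 36 members passed the threshold, all 4 higher in the knockout: the glucose carrier gene SLC2A12, the lactate exporter gene SLC16A3, PFKFB2, which encodes a bifunctional enzyme that sets the level of an activator of phosphofructokinase, and PDHA1, the catalytic alpha subunit of pyruvate dehydrogenase. Calls are limma tests with a Benjamini-Hochberg adjusted p under 0.05 over all genes tested, on log2(normalized count + 1). The 4 members are 11.1% of the list, near the 12.8% of all tested genes that were called, so the count is no result about the list as a whole. Over all genes tested 5.97% were called higher and 6.79% lower. The median log2 fold change of the members was 0.38 against 0.01 for all genes, with 27 members above 0 and 9 below. In 14 members (38.9%) the 3 libraries of one genotype lay entirely above the 3 of the other, 12 higher and 2 lower in the knockout, beside 33.4% of all genes tested (16.2% higher and 17.2% lower). When libraries were scaled to the same total, the median was -0.27 over all genes and 0.10 over the members. Of the members, 22 then lay above 0 and 14 below. Such scaling moves all genes of a library alike, so the gap of 0.38 between these medians could hardly change. With quantile normalization the members' median was 0.20 and that of all genes 0.02, a smaller gap of 0.18.

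The number of members called changed with the libraries and the test used. Without wild-type replicate 2 and knockout replicate 1 together, 19 members passed, 17 higher and 2 lower, beside 30.6% of all genes (15.7% higher and 14.9% lower). Those libraries were picked because they stood apart, so their removal also lowers the spread within genotypes, and it leaves 2 libraries in each. Without knockout replicate 1 alone 7 passed, all higher, beside 14.2% of all genes (6.48% higher and 7.71% lower). DESeq2 on the recovered reads called 11, 10 higher and 1 lower, beside 20.7% of all genes (10% higher and 10.7% lower). With edgeR on those reads 5 passed, all higher, beside 5.57% of all genes called higher and 6.42% lower. Beyond the 4 members called with limma, DESeq2 with all libraries called ALDOA (adjusted p = 0.000628), PGAM1 (0.00423), SLC2A4 (0.00776) and PDHB (0.0106) higher. It also called PFKP (0.0175) and PGK1 (0.0189) higher, and ENO2 (0.0120) lower. SLC2A12, SLC16A3 and PFKFB2 were called in each of the 6 fits that left out 1 library.

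**Figure D2:**
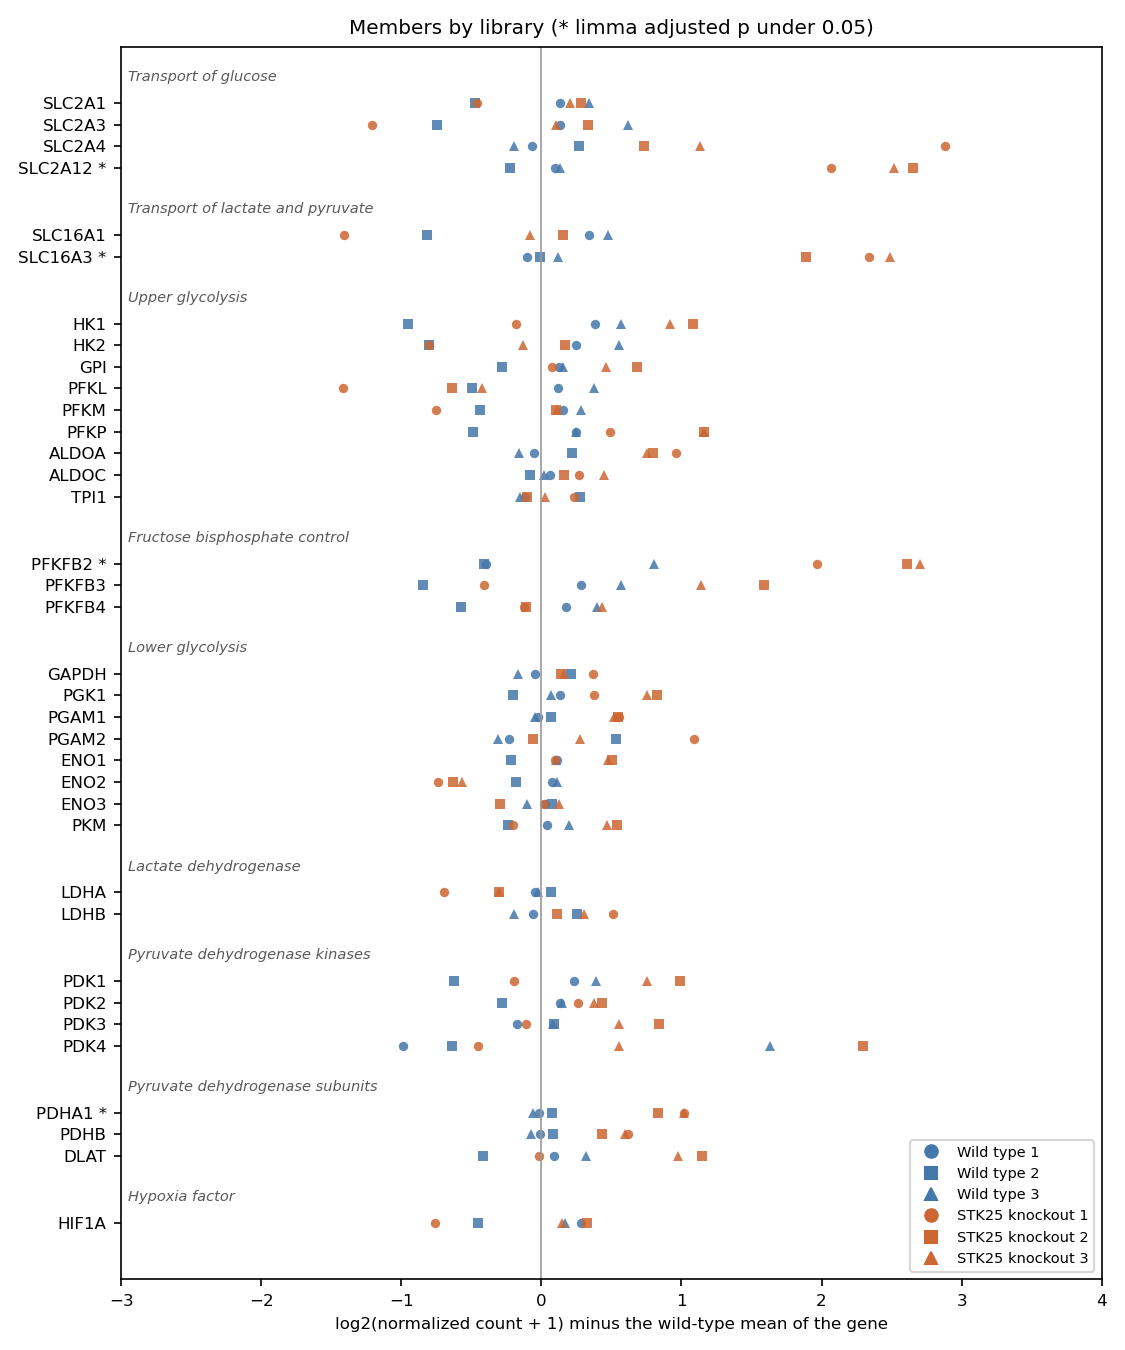
Each row is a member, grouped by role, and each point a library: log2(normalized count + 1) minus the wild-type mean of that gene, with wild type in blue and knockout in orange and replicates 1, 2 and 3 as circles, squares and triangles. For SLC2A12, SLC16A3 and PFKFB2 all 3 knockout libraries lie to the right of the wild type, SLC2A4 has 1 far point (knockout replicate 1), and in 22 of the 36 members the genotypes overlap.

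Glucose enters cells through carriers of the SLC2A family. SLC2A12 (ENSG00000146411.5, minus strand, chr6:133988697-134052636 on GRCh38), which encodes the carrier GLUT12, had 233, 186 and 238 normalized counts in wild-type replicates 1, 2 and 3 and 914, 1370 and 1251 in the knockout replicates. Every knockout library was above every wild-type library, and the means were 219 ± 28.7 and 1178 ± 237 (SD, n = 3 each), a 5.39-fold ratio. Its log2 fold change was 2.41 (SE 0.25, limma adjusted p = 0.00125). SLC2A4 encodes the insulin-responsive carrier GLUT4 and had 113, 143 and 103 in the wild type and 882, 198 and 261 in the knockout. The genotypes did not overlap, but knockout replicate 1 was far above the other libraries, and the log2 fold change of 1.58 (SE 0.54) did not pass (limma adjusted p = 0.103). It was 1.07 (adjusted p = 0.0331) without both libraries that stood apart. SLC2A1, the carrier GLUT1 of most growing cells, had 3287, 2166 and 3809 in the wild type and 2188, 3652 and 3453 in the knockout, with a log2 fold change of 0.01 (SE 0.29, limma adjusted p = 0.991), or -0.27 after scaling to equal totals and -0.08 after quantile normalization. SLC2A3, a high-affinity carrier, had 4157, 2259 and 5820 in the wild type and 1637, 4780 and 4074 in the knockout. Its libraries overlapped, with a log2 fold change of -0.26 (SE 0.48, limma adjusted p = 0.786), or 0.22 without knockout replicate 1. Per kilobase of transcript, SLC2A1 and SLC2A3 were the most abundant of these carriers in both genotypes, at 1466 ± 399 and 1042 ± 455 normalized counts per kb in the wild type, while SLC2A4 and SLC2A12 were at 64.8 ± 11.2 and 49.0 ± 6.41 (SD, n = 3 each). The knockout means of SLC2A4 and SLC2A12 were 242 and 264 per kb, still under the 1471 of SLC2A1.

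Lactate and pyruvate cross the cell membrane through monocarboxylate carriers. SLC16A3 (ENSG00000141526.16, plus strand, chr17:82228397-82261129 on GRCh38) encodes MCT4, a carrier suited to lactate export, and had 214, 229 and 250 normalized counts in the wild type and 1175, 857 and 1303 in the knockout. The genotypes lay well apart, at 231 ± 17.9 and 1111 ± 229 (SD, n = 3 each), a 4.81-fold ratio and a log2 fold change of 2.24 (SE 0.24, limma adjusted p = 0.00152). SLC16A1, which encodes the widely expressed carrier MCT1, had 12124, 5456 and 13375 in the wild type and 3611, 10700 and 9061 in the knockout. Its lowest values came from wild-type replicate 2 and knockout replicate 1, the genotypes overlapped, and its log2 fold change was -0.45 (SE 0.48, limma adjusted p = 0.615), or 0.04 without knockout replicate 1. Per kb, SLC16A1 remained the more abundant carrier, at 2491 against 112 normalized counts per kb in the wild type and 1881 against 539 in the knockout.

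**Figure D3:**
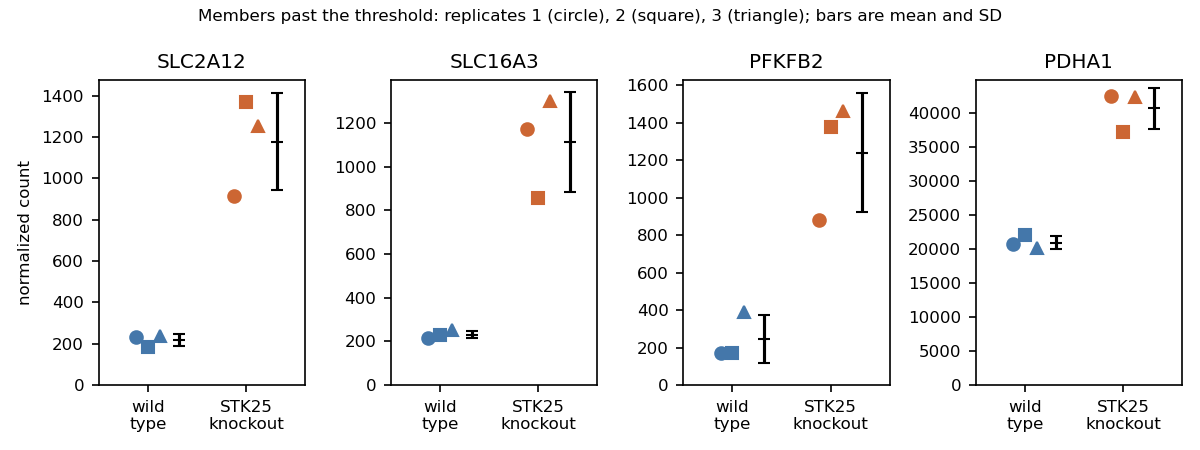
Normalized counts (y axis, starting at 0) of the 4 members past the threshold, with wild type in blue and knockout in orange. Black bars give the mean and SD of 3 libraries, and in each panel all knockout libraries lie above all wild-type libraries.

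The upper part of glycolysis traps glucose as a phosphate and splits it into triose phosphates, and none of its 9 members passed the threshold. ALDOA, the aldolase of muscle and the member with the highest mean in this role, had 82825, 100011 and 76947 normalized counts in the wild type and 167223, 149312 and 144869 in the knockout. All knockout libraries were above all wild-type libraries, by 1.78-fold in the means (86594 ± 11985 and 153801 ± 11834, SD, n = 3 each), but the log2 fold change of 0.83 (SE 0.24) did not pass with limma (adjusted p = 0.0640). It passed on the recovered reads with edgeR (adjusted p = 0.0456) and DESeq2 (adjusted p = 0.000628), and with limma without both libraries that stood apart (0.88, adjusted p = 0.000470). PFKP, the platelet-type phosphofructokinase, had 28479, 17162 and 28474 in the wild type and 33845, 53654 and 53647 in the knockout. Its genotypes did not overlap either, with a log2 fold change of 0.94 (SE 0.30, limma adjusted p = 0.0844), or 0.91 (adjusted p = 0.000227) without both libraries that stood apart and 1.16 (adjusted p = 0.0312) without knockout replicate 1. PFKL, the liver type, had 4557, 2974 and 5457 in the wild type and 1572, 2692 and 3132 in the knockout. Knockout replicate 3 was above wild-type replicate 2, and the log2 fold change was -0.83 (SE 0.33, limma adjusted p = 0.148), or -0.78 (adjusted p = 0.00284) without both libraries that stood apart. PFKM, the muscle type, had 13197, 8733 and 14378 in the wild type and 7018, 12734 and 12767 in the knockout, with a log2 fold change of -0.18 (SE 0.31, limma adjusted p = 0.767), or 0.11 without knockout replicate 1. The hexokinases HK1 and HK2 add the first phosphate. The log2 fold change of HK1 was 0.61 (SE 0.48, limma adjusted p = 0.469), from 0.13 to 1.00 when a single library was omitted. For HK1 it was 0.53 (adjusted p = 0.00962) without both libraries that stood apart. HK2, the insulin-responsive form, had 770, 372 and 953 in the wild type and 371, 730 and 591 in the knockout. It overlapped, at -0.26 (SE 0.41), or 0.02 without wild-type replicate 3 or knockout replicate 1. ALDOC, the brain-type aldolase, had 1817, 1647 and 1757 in the wild type and 2097, 1944 and 2370 in the knockout, without overlap, at 0.29 (SE 0.18, limma adjusted p = 0.344). GPI, which turns glucose phosphate into fructose phosphate, was at 0.41 (limma adjusted p = 0.321), or 0.43 (adjusted p = 0.0233) without both libraries that stood apart, and TPI1, which interconverts the triose phosphates, at 0.05. With equal totals TPI1 was at -0.23, and after quantile normalization at -0.33.

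The PFKFB enzymes make and break down the bisphosphate that activates phosphofructokinase. PFKFB2 (ENSG00000123836.14, plus strand, chr1:207034366-207081024 on GRCh38), the form abundant in heart, had 171, 169 and 392 normalized counts in the wild type and 881, 1378 and 1466 in the knockout. Wild-type replicate 3 was higher than its mates but below every knockout library. The means were 244 ± 128 and 1241 ± 315 (SD, n = 3 each), a 5.09-fold ratio with a log2 fold change of 2.43 (SE 0.39, limma adjusted p = 0.00713). PFKFB3, a form induced by growth signals and low oxygen, had 909, 415 and 1109 in the wild type and 563, 2256 and 1651 in the knockout. Knockout replicate 1 lay within the wild-type range and knockout replicates 2 and 3 lay above it. The log2 fold change was 0.77 (SE 0.56, limma adjusted p = 0.430). It lay between 0.35 and 1.37 when a single library was omitted, and was 0.94 (adjusted p = 0.00457) without both libraries that stood apart. PFKFB4, another inducible form, was at 421, 250 and 490 and at 341, 344 and 502, with a log2 fold change of 0.06 that was -0.22 with equal totals. Per kb, PFKFB2 was the least abundant of these genes in the wild type, at 46.1 ± 24.3 against 246 ± 78.5 for PFKFB4 and 372 ± 164 for PFKFB3. In the knockout PFKFB2 was at 234 and PFKFB4 at 251 per kb. The lengths used were 5294 bases for PFKFB2 and 1575 for PFKFB4, so this comparison depends strongly on them.

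The lower part of glycolysis yields ATP and pyruvate, and none of its 8 members passed. GAPDH, which oxidises the triose phosphate and had the highest mean of all members, had 291127, 349233 and 268282 normalized counts in the wild type and 388619, 331091 and 336159 in the knockout. Its libraries overlapped, with a log2 fold change of 0.22 (SE 0.30, limma adjusted p = 0.694), or -0.06 with equal totals and -0.19 with quantile normalization. PGK1, the first ATP-yielding kinase, had 27079, 21376 and 25873 in the wild type and 31924, 43719 and 41581 in the knockout, without overlap. The log2 fold change was 0.65 (SE 0.22, limma adjusted p = 0.1), or 0.69 (adjusted p = 0.00146) without both libraries that stood apart and 0.79 (adjusted p = 0.0389) without knockout replicate 1. PGAM1, the phosphoglycerate mutase of most tissues, was the most even of these genes within genotypes, at 32682, 34823 and 32264 in the wild type and 48780, 48500 and 47626 in the knockout. Its 1.45-fold difference (log2 fold change 0.54, SE 0.19) was larger than the spread between libraries but did not pass with limma (adjusted p = 0.112). It passed with DESeq2 on all 6 libraries (adjusted p = 0.00423), and with limma without both libraries that stood apart (0.57, adjusted p = 0.00411).

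Enolase makes phosphoenolpyruvate. ENO2, the neuronal form, was lower in every knockout library, with 902, 752 and 921 normalized counts in the wild type and 512, 551 and 576 in the knockout (log2 fold change -0.65, SE 0.20, limma adjusted p = 0.0817). It was -0.69 (adjusted p = 0.0185) without both libraries that stood apart. ENO1, the form of most tissues, had 40122, 32076 and 40107 in the wild type and 39796, 52856 and 51765 in the knockout. It overlapped, at 0.36 (SE 0.23, limma adjusted p = 0.360), -0.05 with quantile normalization and 0.38 (adjusted p = 0.0288) without both libraries that stood apart. ENO3, the muscle form, had 43087, 44776 and 39506 in the wild type and 42895, 34460 and 46202 in the knockout, at -0.05 (SE 0.21). Per kb, ENO3 was at 29321 ± 1858 in the wild type, above 21007 ± 2605 for ENO1 and 354 ± 38.3 for ENO2 (SD, n = 3 each). In the knockout ENO3 (28443 ± 4181) and ENO1 (27014 ± 4066) did not differ beyond their spread. PKM, the pyruvate kinase gene whose splice forms gene totals do not separate, had a log2 fold change of 0.27 (SE 0.27, limma adjusted p = 0.585), or -0.01 with equal totals, -0.13 after quantile normalization and 0.38 (adjusted p = 0.0352) without both libraries that stood apart. Of the 36 members 14 have rows in the table for pseudogenes named after them, and the reads there came to at most 0.131% of those of the parent gene in either genotype.

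Lactate dehydrogenase is built from an A subunit, typical of tissues that make lactate, and a B subunit, typical of heart. The stretches before their start sites are shown because the ratio of the subunit genes separated the genotypes, beside those of PDHA1 and SLC2A12, which rose. Each is the 250 bases before a RefSeq start on GRCh38.p14, 5′ to 3′ on the strand of the gene, and capitals mark ACGTG or GCGTG on either strand, the core letters to which hypoxia-inducible factors bind.
LDHA, chr11:18394313-18394562, plus strand: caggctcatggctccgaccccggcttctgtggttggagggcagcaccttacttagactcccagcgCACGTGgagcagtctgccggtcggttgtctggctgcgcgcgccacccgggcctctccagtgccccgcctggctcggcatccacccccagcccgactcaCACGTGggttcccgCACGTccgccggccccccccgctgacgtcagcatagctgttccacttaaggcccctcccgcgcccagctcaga
LDHB, chr12:21657843-21658092, minus strand: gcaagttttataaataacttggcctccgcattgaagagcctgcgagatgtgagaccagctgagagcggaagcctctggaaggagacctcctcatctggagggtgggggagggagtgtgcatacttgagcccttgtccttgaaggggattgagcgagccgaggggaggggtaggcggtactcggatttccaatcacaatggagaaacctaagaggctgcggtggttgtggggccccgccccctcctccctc
PDHA1, chrX:19343677-19343926, plus strand: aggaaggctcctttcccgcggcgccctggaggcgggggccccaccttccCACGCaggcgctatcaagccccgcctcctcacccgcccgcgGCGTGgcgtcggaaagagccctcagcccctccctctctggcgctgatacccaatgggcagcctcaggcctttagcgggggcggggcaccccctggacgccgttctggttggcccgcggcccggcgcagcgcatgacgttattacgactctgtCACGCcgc
SLC2A12, chr6:134052625-134052874, minus strand: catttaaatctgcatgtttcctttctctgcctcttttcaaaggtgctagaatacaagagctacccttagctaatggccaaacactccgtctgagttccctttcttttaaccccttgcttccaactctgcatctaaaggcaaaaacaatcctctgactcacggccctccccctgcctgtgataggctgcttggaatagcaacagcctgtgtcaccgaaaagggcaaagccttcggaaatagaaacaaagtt
In the LDHA stretch shown the letters were found 5 times at 3 places, because CACGTG reads as ACGTG on both strands, in that of PDHA1 3 times at 3 places, and in those of LDHB and SLC2A12 not at all. LDHA has 1 more stretch in the table, with 1 match, to GCGTG. For 32 of the 36 members the RefSeq table held at least 1 such stretch, often several start sites per gene. There were 62 in all, some of them overlapping. Of these 62, 54.8% held ACGTG or GCGTG, against 43.2% of 35116 stretches of the same length for all genes. ACGTG alone was in 33.9% against 18.5%, GCGTG alone in 35.5% against 32.2%, and the E-box CACGTG, which overlaps ACGTG, in 12.9% against 6.34%. Of the 7 stretches of the members that rose, 5 came from SLC16A3, so their shares mostly describe 1 gene. Among the 7, 14.3% held ACGTG, 42.9% GCGTG and none CACGTG. For SLC16A3 3 of 5 stretches held either motif. PFKFB2, SLC16A1, SLC2A3 and SLC2A4 had no entry. A match is a description of the letters and not a bound site.

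LDHA had 24975, 26942 and 25346 normalized counts in the wild type and 15930, 20827 and 20836 in the knockout. Every knockout library was below every wild-type library, although the log2 fold change of -0.43 (SE 0.20) did not pass (limma adjusted p = 0.209). LDHB had 74978, 92984 and 68190 in the wild type and 111219, 84189 and 96351 in the knockout, which overlapped, with a log2 fold change of 0.31 (SE 0.25, limma adjusted p = 0.482) that was -0.14 with quantile normalization. LDHB was the more abundant subunit gene in both genotypes, at 55415 ± 9020 against 14100 ± 572 normalized counts per kb in the wild type (SD, n = 3 each) and 68464 against 10510 in the knockout.

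Ratios of paralogs were compared within each library, where a scaling factor of the library cancels. Departures that go with transcript length need not cancel between paralogs of unlike length. The log2 ratio of SLC16A3 to SLC16A1 was -5.81, -4.57 and -5.74 in wild-type replicates 1, 2 and 3. In the knockout replicates it was -1.62, -3.64 and -2.80, so it was highest in the libraries that stood apart. Of 16 ratios computed, 9 separated the genotypes, 2 higher and 7 lower in the knockout. No such share was computed for ratios of other genes, and several of the 16 share a denominator. The count is therefore no result about paralog balance as a whole. An exact two-sided permutation test of 3 against 3 libraries cannot go below p = 0.1, which each of these 9 reached, and the Benjamini-Hochberg adjusted value over the 16 was 0.178. The log2 ratio of PFKP to PFKM was 1.11, 0.97 and 0.99 in the wild type and 2.27, 2.07 and 2.07 in the knockout, a shift of 1.12 or 2.17-fold. The knockout libraries were richer in transcripts of the platelet type relative to the muscle type, and the shift stayed between 1.05 and 1.16 in fits without 1 library. PFKL to PFKM shifted by -0.65, from a mean of -1.50 ± 0.09 to -2.14 ± 0.11 (SD, n = 3 each). ENO2 to ENO1 was -5.47, -5.41 and -5.44 in the wild type and -6.28, -6.58 and -6.49 in the knockout, a shift of -1.01. The spread within genotypes of these phosphofructokinase and enolase ratios was small, including in the libraries that stood apart.

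The other ratios that separated the genotypes varied more between libraries. HK2 to HK1 shifted by -0.86 (wild type -4.35 ± 0.14, knockout -5.21 ± 0.22), ALDOC to ALDOA by -0.54, and LDHA to LDHB by -0.74, from -1.59, -1.79 and -1.43 to -2.80, -2.02 and -2.21. Without wild-type replicate 2 and knockout replicate 1 the LDHA to LDHB shift was -0.61. SLC16A3 to SLC16A1 shifted by 2.69, or 6.44-fold, and PFKFB3 and PFKFB4 relative to PFKFB2 by -1.65 and -2.36. These last shifts contain SLC16A3 and PFKFB2, which were called by themselves. The ratios among pyruvate dehydrogenase kinases, PGAM2 to PGAM1, ENO3 to ENO1, SLC2A3 to SLC2A1 and SLC2A4 to SLC2A1 overlapped between genotypes, with exact permutation p from 0.2 to 0.9 and adjusted p from 0.32 to 0.9.

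**Figure D4:**
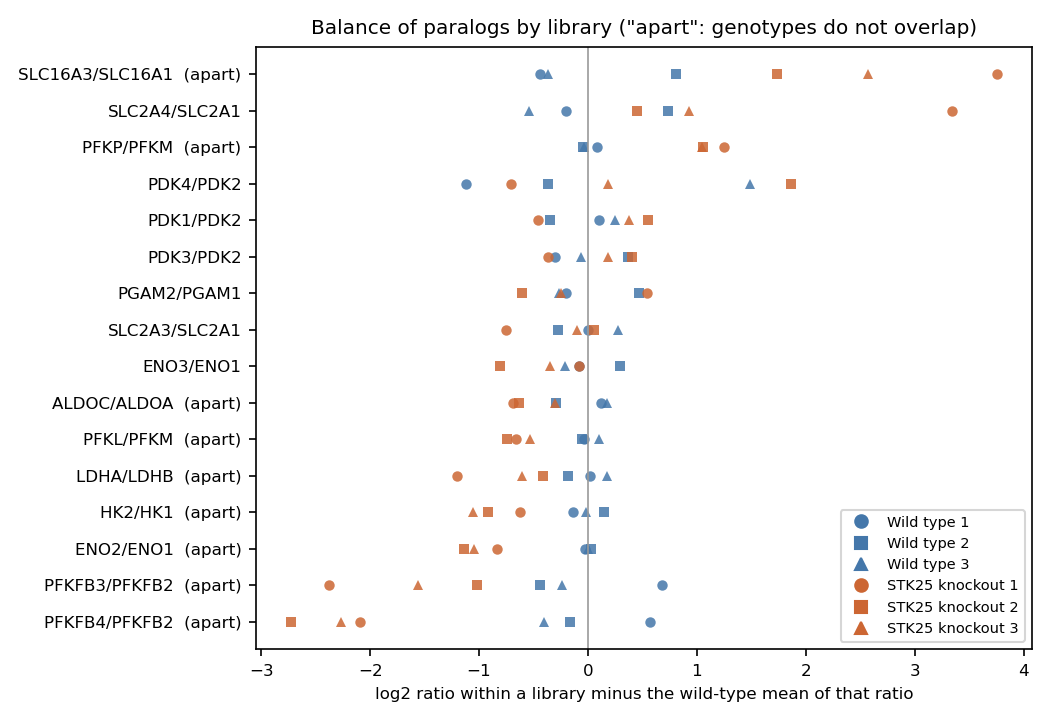
Log2 ratio of normalized counts of 2 paralogs in each library minus the wild-type mean of that ratio (x axis), with wild type in blue and knockout in orange, for 16 ratios ordered by their shift. In the 9 ratios marked apart the genotypes do not overlap, and the points of each genotype lie closest together for PFKP to PFKM, PFKL to PFKM and ENO2 to ENO1.

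Pyruvate dehydrogenase commits pyruvate to oxidation. PDHA1 (ENSG00000131828.13, plus strand, chrX:19343893-19361705 on GRCh38) had 20676, 22053 and 20086 normalized counts in the wild type and 42441, 37199 and 42297 in the knockout. The genotypes were far apart relative to their spread, at 20938 ± 1009 and 40646 ± 2986 (SD, n = 3 each), a 1.94-fold ratio with a log2 fold change of 0.96 (SE 0.19, limma adjusted p = 0.0163). Leaving out replicate 1 or 3 of the wild type or replicate 3 of the knockout ended the call (highest adjusted p 0.0974), as did quantile normalization (adjusted p = 0.105). PDHB, the beta subunit of the same enzyme, was also higher in every knockout library, with 13940, 14853 and 13356 against 21533, 18901 and 21268. Its log2 fold change of 0.55 (SE 0.18) did not pass with limma (adjusted p = 0.0882). It passed with DESeq2 on all 6 libraries (adjusted p = 0.0106), and with limma without both libraries that stood apart (0.56, adjusted p = 0.00606). DLAT, the acetyltransferase core, had 5054, 3559 and 5926 in the wild type and 4680, 10498 and 9340 in the knockout. Knockout replicate 1 lay within the wild-type range and the log2 fold change was 0.70 (SE 0.34, limma adjusted p = 0.235), which passed without that library (adjusted p = 0.0318) and without both libraries that stood apart (0.86, adjusted p = 0.000935).

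The pyruvate dehydrogenase kinases, which inhibit the complex, all 4 lay above 0 and none passed. PDK1, induced by low oxygen and the kinase gene with the highest mean, had 14182, 7806 and 15786 normalized counts in the wild type and 10501, 23872 and 20359 in the knockout. The genotypes overlapped, with a log2 fold change of 0.52 (SE 0.38, limma adjusted p = 0.441). It lay between 0.20 and 0.87 when a single library was omitted, and was 0.56 (adjusted p = 0.00818) without both libraries that stood apart. PDK2, a broadly expressed kinase, had 5309, 3992 and 5353 and then 5787, 6529 and 6285, without overlap (0.36, SE 0.19, limma adjusted p = 0.283). PDK3, a kinase less sensitive to pyruvate, had 195, 234 and 232 in the wild type and 203, 393 and 323 in the knockout, at 0.43 (SE 0.32). PDK4, the kinase that fasting and fatty acids induce, was scarce, at 7.55 to 51.7 normalized counts in the wild-type libraries and 11.4 to 82.5 in the knockout libraries, with a log2 fold change of 0.80 (SE 0.95) that lay between 0.053 and 1.62 when a single library was omitted. HIF1A, the oxygen-regulated factor that drives many glycolytic genes and is controlled mostly at the protein level, had 14055, 8419 and 12979 in the wild type and 6797, 14446 and 12801 in the knockout. The genotypes overlapped, with a log2 fold change of -0.10 (SE 0.34, limma adjusted p = 0.895) that was 0.24 without knockout replicate 1.

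Partners of pyruvate entry and neighbouring sugar pathways were read from the same fit, as 99 further genes of which 89 were tested. Of these 15 passed, 10 higher and 5 lower (16.9%, beside 12.8% of all genes), and their median log2 fold change was -0.01. Of the 8 partners of pyruvate entry 1 passed: MPC1, a subunit of the carrier that takes pyruvate into mitochondria, had 3169, 4851 and 2828 normalized counts in the wild type and 16040, 7870 and 9946 in the knockout. Its libraries did not overlap, with a log2 fold change of 1.62 (SE 0.32, limma adjusted p = 0.0161), but the call was lost without wild-type replicates 1 or 3 or knockout replicate 3 (adjusted p up to 0.0794).

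Genes that low oxygen is known to induce moved both ways. Of 19 tested outside glycolysis 5 passed, 3 higher and 2 lower (26.3%, beside 12.8% of all genes). STC2, a secreted glycoprotein gene, rose by 1.26 on the log2 scale (SE 0.21, limma adjusted p = 0.00777), ANKRD37 by 1.33 (SE 0.25, limma adjusted p = 0.0132) and RBPJ, the Notch effector, by 0.75 (SE 0.17, limma adjusted p = 0.0277). ADM, the vasodilator adrenomedullin, fell by 0.90 (SE 0.21, limma adjusted p = 0.0316), and NDRG1 went from 71.0, 80.0 and 36.4 normalized counts to 5.08, 2.23 and 1.78 (log2 fold change -3.99, SE 0.65, limma adjusted p = 0.00777). STC2 passed in all 6 fits that left out 1 library, NDRG1 in 5, ANKRD37 in 4, and ADM and RBPJ in 1 each. Of 8 partners and regulators of the hypoxia factors 1 passed: EGLN3, a prolyl hydroxylase that marks the factors for breakdown, had 314, 261 and 362 in the wild type and 2982, 3973 and 4129 in the knockout, an 11.8-fold ratio (log2 fold change 3.56, SE 0.23, limma adjusted p = 0.000198) that passed in all 6 such fits.

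Of 18 tested regulators of glucose use 4 passed, 2 higher and 2 lower (22.2%, beside 12.8% of all genes). MYC, a factor that activates many glycolytic genes, had 36.3, 31.2 and 65.1 normalized counts in the wild type and 472, 671 and 669 in the knockout (log2 fold change 3.80, SE 0.37, limma adjusted p = 0.000968). Its relative MYCN had 3649, 2389 and 3876 in the wild type and 20.3, 183 and 127 in the knockout (log2 fold change -5.35, SE 0.74, limma adjusted p = 0.00374). Per kb, MYCN was the higher of the pair in the wild type, at 1539 against 21.6, and MYC in the knockout, at 296 against 51.3. TXNIP, which restrains glucose uptake, fell by 1.55 on the log2 scale (SE 0.31, limma adjusted p = 0.0160), and MLX, a subunit of the glucose-sensing factors that act on TXNIP, rose by 0.80 (SE 0.16, limma adjusted p = 0.0187). MYC and MYCN passed in all 6 fits that left out 1 library. TXNIP lost its call without wild-type replicate 1 or knockout replicate 3 (adjusted p up to 0.0734), and MLX passed in 2 of those 6 fits.

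In glycogen metabolism 2 of 15 tested genes passed (13.3%, beside 12.8% of all genes). UGP2, which makes the sugar donor for glycogen, rose by 1.20 on the log2 scale (SE 0.24, limma adjusted p = 0.0158) and PPP1R3A, a muscle glycogen-targeting phosphatase subunit, by 0.98 (SE 0.20, limma adjusted p = 0.0187). In the pentose phosphate pathway 1 of 8 passed (12.5%), transketolase TKT, which rose by 0.83 (SE 0.19, limma adjusted p = 0.0255). UGP2 and PPP1R3A each passed in 2 of the 6 fits that left out 1 library, and TKT in 1. The median log2 fold changes of these lists were 0.53 and -0.06.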

How the data were processed

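Total RNA of the 6 libraries was isolated with a Qiagen RNeasy kit and on-column DNase treatment, reverse transcribed using Clontech Ultra Low v4 chemistry and made into NexteraXT libraries, per the labels' protocols. The submitters' processing notes name bcl2fastq 2.19, kallisto 0.44.0, DESeq2 1.28.1 and GRCh38. The annotation and use of strand are not given in the sources used here. The deposited values are a signal the authors call normalized counts: 100% of them were whole multiples (within 0.01) of 1 step per library, so whole reads could be recovered, 22443904 to 53224112 per library. The labels mention no molecular identifiers, so reads need not be independent molecules.

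Genotypes were compared in R 4.3.3 with limma 3.58.1 (lmFit, eBayes with a trend) on log2(normalized count + 1), for the 15536 genes averaging 10 or more, with all 6 libraries, no covariate, and Benjamini-Hochberg adjustment at 0.05. A pseudocount of 1 understates folds of low genes. edgeR 4.0.16 and DESeq2 1.42.0 on recovered reads were alternatives. The fits were also run on simulated counts with known changes. Those were drawn independently with no library standing apart, unlike the libraries here, so they do not show how the fits behave with such libraries. The main alternatives were other pseudocounts, filters, scalings and moderation, a replicate block and leaving out libraries. Paralog ratios used an exact permutation test.

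The members, lists, libraries called apart and tests were chosen with earlier results of these data known. Values of each library are given for called members and, in other roles, the member with the highest mean, plus other members added after their values were seen. Genes of other lists are named where called, except 1 result that is not reported here. Positions and median coding-transcript lengths came from GENCODE 29 on GRCh38, and promoters from RefSeq on GRCh38.p14. Levels per kb were divided by those median lengths, with no weight for the use of each transcript. Rankings of paralogs per kb depend on that choice. Plots were made in matplotlib 3.10.9 under Python 3.11.15.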

Additional observations from a re-analysis of the deposited data

How the results depend on the processing

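Over all members and alternatives, 621 fits of a member kept its direction and side of the threshold, 26 newly passed, 5 lost their call and 31 changed sign, the last only in members that did not pass. The number of genes changed was 1982, and it was 798 with the replicate number as a block, 3210 with DESeq2, 4706 without wild-type replicate 2 and knockout replicate 1 together, and 792 to 2192 when 1 library was left out. With equal totals it split into 549 higher and 1457 lower, in place of 927 and 1055. The members called were 11 with DESeq2, 19 without both libraries and 3 to 7 when 1 was left out. The genes called in the other lists were 15, or 5 with the replicate block, 38 without both libraries and 5 to 17 when 1 was left out. The replicate block kept 3 of the 4 members and lost PDHA1. Same-numbered libraries did not depart together (correlations of departures -0.23, -0.40 and 0.17), so the numbers were not taken to pair libraries. The median of the members was 0.10 with equal totals, in place of 0.38, and 0.26 to 0.50 when 1 library was left out.

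Signs changed with equal totals for GAPDH (-0.060), PFKFB4 (-0.22), PKM (-0.015), SLC2A1 (-0.27) and TPI1 (-0.23). With quantile normalization they changed for ENO1 (-0.049), GAPDH (-0.19), LDHB (-0.14), PKM (-0.13), SLC2A1 (-0.076) and TPI1 (-0.33), and with edgeR for SLC2A1 (-0.0060). Without both libraries HIF1A was 0.0099 and PFKFB4 -0.13. Leaving out 1 library, log2 fold changes ran across 0 for TPI1 (-0.040 to 0.19), HIF1A (-0.32 to 0.24), PFKFB4 (-0.22 to 0.26), SLC2A1 (-0.23 to 0.24), HK2 (-0.66 to 0.020), SLC2A3 (-0.63 to 0.22), PFKM (-0.40 to 0.11), SLC16A1 (-0.85 to 0.037) and ENO3 (-0.14 to 0.070). Ratio shifts did so for PDK4 to PDK2 (-0.26 to 1.19), PDK3 to PDK2 (-0.093 to 0.29), PGAM2 to PGAM1 (-0.43 to 0.15) and PDK1 to PDK2 (-0.037 to 0.47), and PDK3 to PDK2 was 0.48 without both libraries.

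The causes of these changes were not tested. Counting error is largest for PDK4, the scarcest member.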

Other observations

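The 36 members together took 2.67%, 2.43% and 2.58% of all normalized counts in wild-type replicates 1, 2 and 3, and 2.32%, 2.97% and 2.81% in the knockout replicates. The genotypes overlapped, and within each the library that stood apart had the lowest share. GAPDH alone took 0.859%, 0.893% and 0.790% in the wild type and 0.780%, 0.850% and 0.807% in the knockout.

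Over all 6 libraries the members with the smallest ratio of highest to lowest normalized count were ENO3 (1.34-fold), TPI1 (1.35-fold), ALDOC (1.44-fold), GAPDH (1.45-fold) and PGAM1 (1.51-fold). The widest were PDK4 (10.9-fold), PFKFB2 (8.67-fold), SLC2A4 (8.54-fold), SLC2A12 (7.37-fold) and SLC16A3 (6.07-fold). These members were picked by their values.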
